A study of Homo sapiens with 24 samples.

Results

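The report covers 10 genes for proteins that leucocytes carry on their surface: the integrin subunit genes ITGAM, ITGAX, ITGAL, ITGB2, ITGA4, ITGA5, ITGB1 and ITGB7, the phosphatase gene PTPRC (CD45) and the tetraspanin gene CD53. The members were chosen by symbol, and all 10 are among the 30373 rows of the deposited expression table. RNA was measured by poly-A sequencing in 24 libraries of 4 established human cell lines, in 12 groups of 2 libraries. Acute myeloid leukaemia gave rise to Kasumi-1, MV-4-11 and SKM-1, while NCI-H1299 comes from non-small cell lung cancer. All cells were grown in RPMI-1640 with 10% FBS and were given DMSO (the vehicle), ABBV-075 at 100 nM or ABBV-744 at 200 nM for 24 h. ABBV-075 (mivebresib) inhibits both bromodomains of the BET proteins, readers of acetylated histones, and ABBV-744 is selective for the second bromodomain. The compounds were used at different doses, so their changes are set side by side and not tested against each other, and both are measured against the same DMSO libraries. Each disease is represented by cultured lines alone, and lung cancer by a single line.

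Integrins are pairs of an alpha and a beta subunit that bind other cells or the extracellular matrix. The beta 2 subunit (ITGB2, CD18) pairs in leucocytes with the alpha subunits ITGAL (forming LFA-1, which binds ICAM proteins), ITGAM (Mac-1, a complement and fibrinogen receptor of myeloid cells) and ITGAX (CD11c, common on monocytes and dendritic cells). ITGA4 pairs with ITGB1 to form VLA-4, which binds VCAM1 and fibronectin and holds haematopoietic cells in the bone marrow, or with ITGB7 to form a gut-homing receptor. ITGA5 pairs with ITGB1 as the main fibronectin receptor of many tissues. PTPRC removes phosphates from Src-family and Janus kinases in nearly all nucleated blood cells, and CD53 is a tetraspanin that organises other membrane proteins there.

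The promoters of 4 members are shown because these genes carry the main contrasts below: ITGAM rose with ABBV-744 in SKM-1, ITGA4 fell with ABBV-075 in every line, ITGB1 was called only upwards with the compounds, and PTPRC went opposite ways with the compounds in SKM-1. Each is the 250 bases before the gene's start, 5′ to 3′ on the gene's own strand, from RefSeq (GRCh38.p14). Capitals mark GAGGAA or its complement TTCCTC, the core of sites for the myeloid factor PU.1. The windows lie at chr16:31259725-31259974 (plus strand) for ITGAM, chr2:181457136-181457385 (plus) for ITGA4, chr10:32958231-32958480 (minus) for the first of 2 listed starts of ITGB1, and chr1:198638790-198639039 (plus) for PTPRC.
ITGAM: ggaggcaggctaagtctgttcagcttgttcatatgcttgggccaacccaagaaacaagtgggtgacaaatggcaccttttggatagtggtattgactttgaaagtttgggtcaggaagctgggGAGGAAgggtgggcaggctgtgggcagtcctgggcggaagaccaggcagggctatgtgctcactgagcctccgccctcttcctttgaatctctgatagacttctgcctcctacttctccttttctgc
ITGA4: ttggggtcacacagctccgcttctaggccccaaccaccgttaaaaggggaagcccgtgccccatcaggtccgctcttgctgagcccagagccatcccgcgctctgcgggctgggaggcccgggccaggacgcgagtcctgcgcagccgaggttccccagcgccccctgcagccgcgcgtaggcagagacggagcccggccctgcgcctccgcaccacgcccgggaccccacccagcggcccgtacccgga
ITGB1: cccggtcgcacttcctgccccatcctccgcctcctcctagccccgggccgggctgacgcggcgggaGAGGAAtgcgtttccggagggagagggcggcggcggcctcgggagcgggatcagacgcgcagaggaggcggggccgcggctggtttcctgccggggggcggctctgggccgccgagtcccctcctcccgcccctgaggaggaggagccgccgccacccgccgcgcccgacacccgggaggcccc
PTPRC: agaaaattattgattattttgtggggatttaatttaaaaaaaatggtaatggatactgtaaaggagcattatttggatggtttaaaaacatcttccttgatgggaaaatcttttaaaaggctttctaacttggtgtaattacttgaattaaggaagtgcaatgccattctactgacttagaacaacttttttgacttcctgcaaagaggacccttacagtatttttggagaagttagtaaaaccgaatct

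RefSeq promoters were at hand for 7 of the 10 members, and 5 motifs were searched on both strands. GAGGAA was present in 23.6% of all 35116 promoters of the same length, GGGCGG (SP1 and KLF factors) in 42.6%, TGTGGT (RUNX) in 11.0%, TTGCNNAA (C/EBP) in 9.05% and CACGTG (E-box) in 6.34%. The ITGAM window held GAGGAA once, 127 bases before the start, and 2 matches to GGGCGG. The ITGB1 window held GAGGAA once, 184 bases before the start, and 3 matches to GGGCGG. The windows of ITGA4 and PTPRC held none of the 5 motifs. Among the members not printed, ITGB7 had GAGGAA 28 bases before its start, the second listed start of CD53 had 2 matches to it, and ITGA5 and the first start of CD53 each had 1 match to TTGCNNAA. GGGCGG had 1 match in ITGA5, 210 bases before the start, and 1 at the second start of CD53, 94 bases before it. The second start of ITGB1 held none of the 5 motifs. These matches describe the letters in the windows and were not tested against expression.

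Expression was deposited as FPKM (fragments per kilobase of gene, scaled to library size), without counts, and library depth is therefore unknown. The FPKM sum ran from 543426 to 719215 per library, and 11243 to 12624 genes per library reached 1 FPKM. Libraries of a group agreed least in SKM-1 with DMSO, where the SD of the log2 difference across genes was 0.63. It was 0.475 in the Kasumi-1 ABBV-075 pair and from 0.16 to 0.285 in the other 10 groups. Mitochondrial transcripts took 22.3% of FPKM in SKM-1 DMSO replicate 2, 9.13% in replicate 1 and 6.65% to 16.3% in the other 23 libraries. Nothing in the labels ties a group's libraries to separate cultures, so the p-values measure the spread between these samples, which may be technical. Of 8 haematopoietic marker genes, 8 reached 1 FPKM in SKM-1 and in MV-4-11, 7 in Kasumi-1 and 1 in NCI-H1299, whereas lymphoid markers did so for 0, 0, 1 and 0 of 8 and epithelial markers for 1, 2, 1 and 4 of 8 in the same order. All 10 members passed the filter for testing (1 FPKM or more in 2 or more of a line's libraries) in SKM-1 and MV-4-11, 6 in Kasumi-1 and 4 in NCI-H1299.

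In cells given DMSO, the lines differed first in which beta 2 partner they expressed. The ITGAL level was 355 and 371 FPKM in the MV-4-11 libraries, 39.9 and 43.7 in SKM-1, 0.661 and 0.580 in Kasumi-1, and 0.0974 and 0.159 in NCI-H1299. The ITGAM level was 17.1 and 11.2 FPKM in SKM-1, 1.20 and 1.33 in NCI-H1299, 0.851 and 0.865 in MV-4-11, and 0.0913 and 0.0873 in Kasumi-1. MV-4-11 thus had the highest ITGAL and SKM-1 the highest ITGAM, and no library of these lines overlapped with the other line in either gene. The ITGAX level was 8.76 and 6.79 FPKM in SKM-1, 2.99 and 3.07 in MV-4-11, 0.520 and 0.805 in Kasumi-1, and 0.125 in both NCI-H1299 libraries. The ITGB2 level was 139 and 66.1 FPKM in SKM-1, 72.5 and 87.3 in MV-4-11, 18.8 and 14.5 in Kasumi-1, and 0.257 and 0.269 in NCI-H1299. For ITGB2 the SKM-1 and MV-4-11 libraries overlapped, and the remaining steps down to Kasumi-1 and NCI-H1299 did not.

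The subunits of the fibronectin and VCAM1 receptors had another order. The ITGA4 level was 78.3 and 92.2 FPKM in Kasumi-1, 69.2 and 54.3 in MV-4-11, 38.7 and 42.7 in SKM-1, and 12.9 and 13.4 in NCI-H1299. The ITGA5 level was 73.9 and 73.1 FPKM in Kasumi-1, 42.8 and 50.3 in MV-4-11, 37.6 and 19.9 in SKM-1, and 16.7 and 17.1 in NCI-H1299. The ITGB1 level was 229 FPKM in both NCI-H1299 libraries, 150 and 166 in Kasumi-1, 36.2 and 63.4 in SKM-1, and 43.9 and 39.5 in MV-4-11. The lung line was therefore lowest for both alpha subunits and highest for the beta subunit they share. The ITGB7 level was 13.7 and 17.4 FPKM in MV-4-11, 9.09 and 4.38 in SKM-1, 0.281 and 0.208 in NCI-H1299, and 0.143 and 0.0802 in Kasumi-1.

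Both pan-leucocyte genes separated the leukaemia lines from the lung line. The PTPRC level was 99.5 and 111 FPKM in SKM-1, 48.4 and 46.4 in MV-4-11, 18.1 and 24.1 in Kasumi-1, and 0.0251 and 0.0952 in NCI-H1299. The CD53 level was 112 and 109 FPKM in MV-4-11, 74.2 and 90.3 in Kasumi-1, 28.5 and 19.5 in SKM-1, and 0.0212 and 0.124 in NCI-H1299. Among the leukaemia lines SKM-1 was highest for PTPRC and lowest for CD53, and MV-4-11 lay above Kasumi-1 for both genes.

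**Figure D1:**
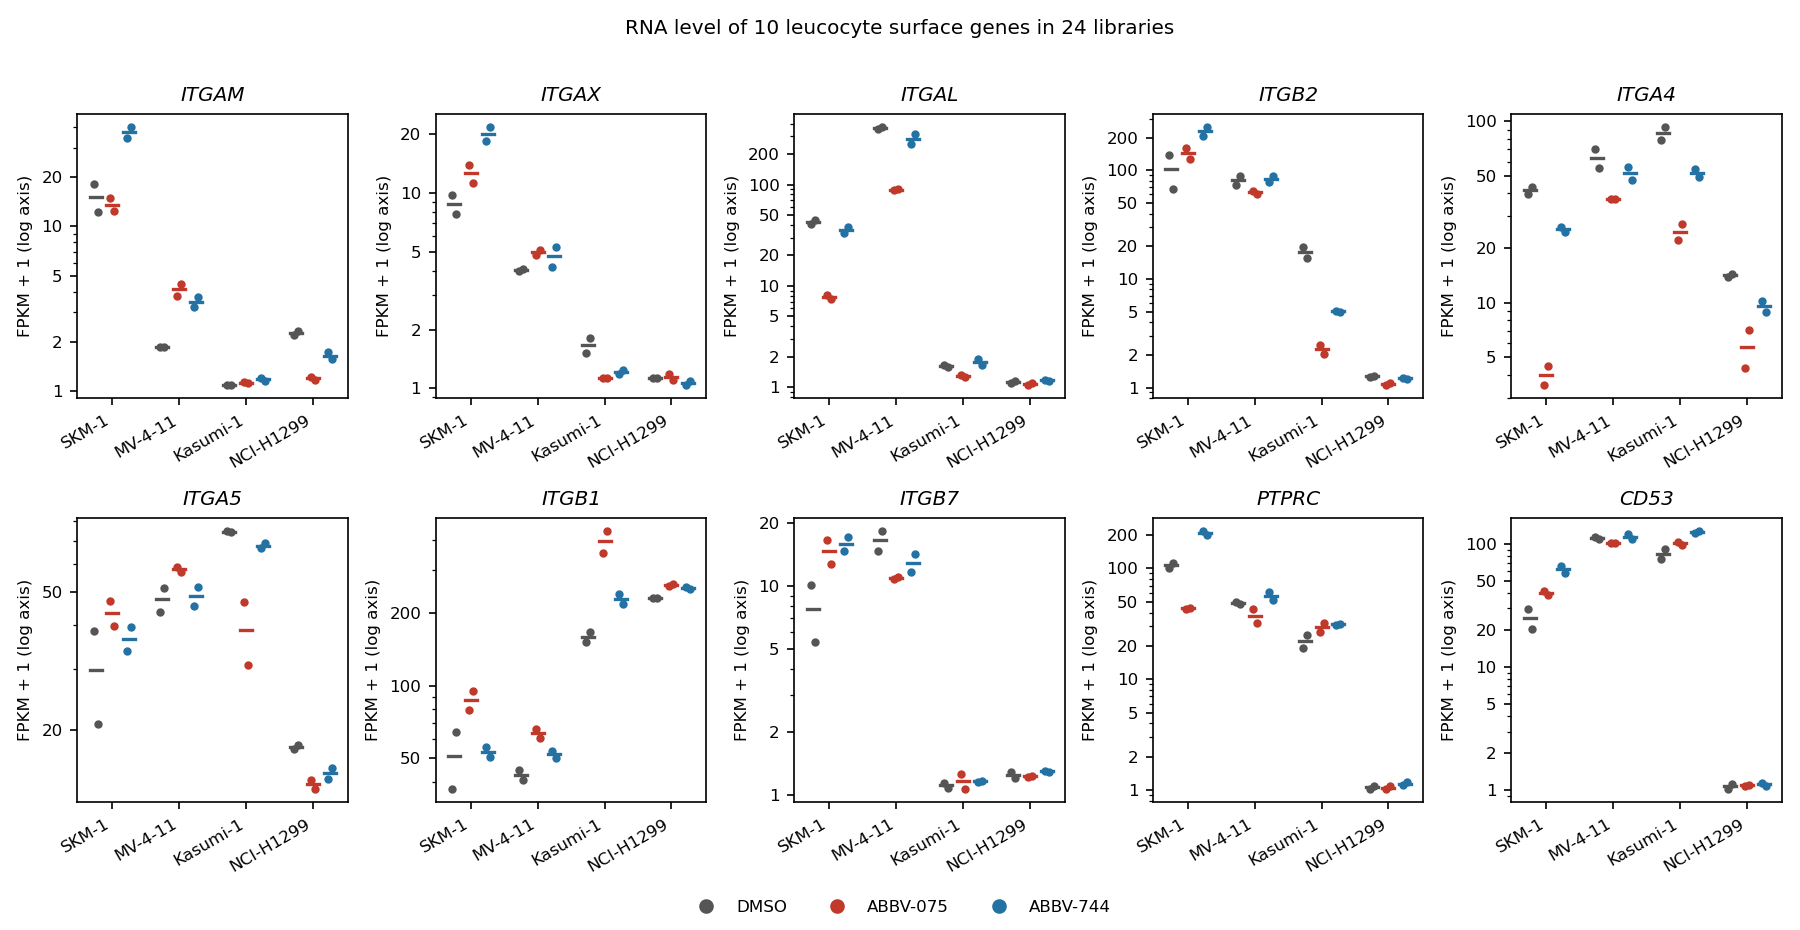
FPKM + 1 on a log axis for each of the 10 genes, by cell line and treatment. Each point is 1 library and each short line the mean of 2. ITGAL is highest in MV-4-11, with 355 and 371 FPKM under DMSO, and PTPRC and CD53 stay below 0.2 FPKM in all NCI-H1299 libraries.

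Differences were tested with limma on log2(FPKM + 1), with Benjamini-Hochberg adjustment over all genes tested in a comparison. An adjusted p under 0.05 made a call. Between SKM-1 and MV-4-11, 8 of 10 members were called against 62% of all genes tested, and ITGB2 and ITGB1 were not. Between SKM-1 and Kasumi-1 it was 10 of 10 against 61.3%, and between SKM-1 and NCI-H1299 10 of 10 against 69%. Between MV-4-11 and Kasumi-1 it was 9 of 10 against 61.5% (ITGA4 was not called), between MV-4-11 and NCI-H1299 9 of 10 against 70.4% (ITGAM was not called), and between Kasumi-1 and NCI-H1299 7 of the 7 tested against 69.4%. Of the 57 tests, the largest was ITGAL in MV-4-11 minus NCI-H1299, with a log2 difference of 8.33 ± 0.12 (SE, n = 2 libraries per line; limma adjusted p = 8.69e-18). A gene entered these comparisons by passing the filter in either line. ITGAX, ITGAL, ITGB2, ITGB7, PTPRC and CD53 did not pass in NCI-H1299, nor ITGAM, ITGAX, ITGAL and ITGB7 in Kasumi-1. Where only the other line passed, the direction of the difference was favoured by the filter. Neighbours in the orders given above that were not called were ITGB2 in SKM-1 and MV-4-11 (limma adjusted p = 0.358), ITGB1 in the same lines (0.368), ITGA4 in MV-4-11 and Kasumi-1 (0.0530) and ITGAM in MV-4-11 and NCI-H1299 (0.110). ITGAX and ITGAL in Kasumi-1 and NCI-H1299, and ITGB7 in the same lines, were below the filter. SKM-1 DMSO replicate 1 or 2 decided some of these calls: without replicate 1, ITGB1 was higher in SKM-1 than in MV-4-11 by 0.60 (limma adjusted p = 0.00158) and ITGA4 lost its call (0.0753), and without replicate 2, ITGB2 was higher by 0.79 (0.00171) and ITGA5 lost its call (0.195). The ITGA5 difference of SKM-1 minus NCI-H1299, 0.67 (limma adjusted p = 0.0153), was 0.22 (0.308) without SKM-1 DMSO replicate 1 and was also lost without NCI-H1299 DMSO replicate 1 (0.65; 0.0621) or 2 (0.68; 0.0509). CD53 in MV-4-11 minus Kasumi-1, 0.43 (limma adjusted p = 0.0179), was lost at a pseudocount of 0.1 FPKM (0.43; 0.113), after quantile normalization (0.22; 0.159), and without MV-4-11 DMSO replicate 1 (0.40; 0.0767) or 2 (0.45; 0.0524) or Kasumi-1 DMSO replicate 1 (0.29; 0.175). ITGA5 in the same lines, -0.65 (limma adjusted p = 0.0195), was lost without MV-4-11 DMSO replicate 1 (-0.54; 0.121) and without Kasumi-1 DMSO replicate 1 (-0.64; 0.0700) or 2 (-0.66; 0.0659). ITGB1 in Kasumi-1 minus NCI-H1299, -0.53 (limma adjusted p = 0.0193), was lost after quantile normalization (-0.31; 0.200), without Kasumi-1 DMSO replicate 1 (-0.46; 0.104) and without either NCI-H1299 DMSO library (-0.53; 0.0670 and 0.0666). For ITGA4, SKM-1 minus MV-4-11 also lost its call without MV-4-11 DMSO replicate 1 (-0.41; limma adjusted p = 0.163) and after quantile normalization (-0.50; 0.0505), and ITGA5 in those lines without MV-4-11 DMSO replicate 2 (-0.63; 0.0755).

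With the compounds the members did not move as a block. In SKM-1 with ABBV-075, 5 of 10 rose against 32% of all genes tested, and 3 fell against 29.2%. In SKM-1 with ABBV-744, 6 of 10 rose against 14.9% and 1 fell against 12.5%. In MV-4-11 with ABBV-075, 2 of 10 rose against 20.3% and 3 fell against 22.1%, and with ABBV-744 1 rose against 4.61% and 1 fell against 6.75%. In Kasumi-1 with ABBV-075, 2 of the 6 tested rose against 24.7% and 3 fell against 32.6%, and with ABBV-744 2 rose against 8.69% and 2 fell against 15%. In NCI-H1299 with ABBV-075, 0 of the 4 tested rose against 20.6% and 2 fell against 26.5%. With ABBV-744 limma called 0 of 4 there, against 1.4% of genes higher and 3.95% lower, and ITGAM and ITGA4 had unadjusted p-values of 0.00830 and 0.0111. ITGAM was among the members that rose in MV-4-11 with each compound and that fell in NCI-H1299 with ABBV-075. It passed the filter only through treated libraries in MV-4-11 and only through DMSO in NCI-H1299. The filter therefore favoured these directions. The median log2 difference of the members tested in SKM-1 was 0.54 with ABBV-075 and 1.05 with ABBV-744, beside 0.054 and 0.053 over all genes tested. In MV-4-11 the member medians were -0.25 and 0.049 beside -0.0095 and 0.022, in Kasumi-1 -0.34 and 0.19 beside -0.086 and -0.040, and in NCI-H1299 -0.64 and -0.36 beside -0.056 and -0.028. These calls use a spread pooled by limma over the 24 libraries: fitted in SKM-1 alone, 4 members were called with ABBV-075 and 0 with ABBV-744. The share of all genes called in that fit was not computed. An exact permutation test of 2 libraries against 2 cannot go below p = 0.333.

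**Figure D2:**
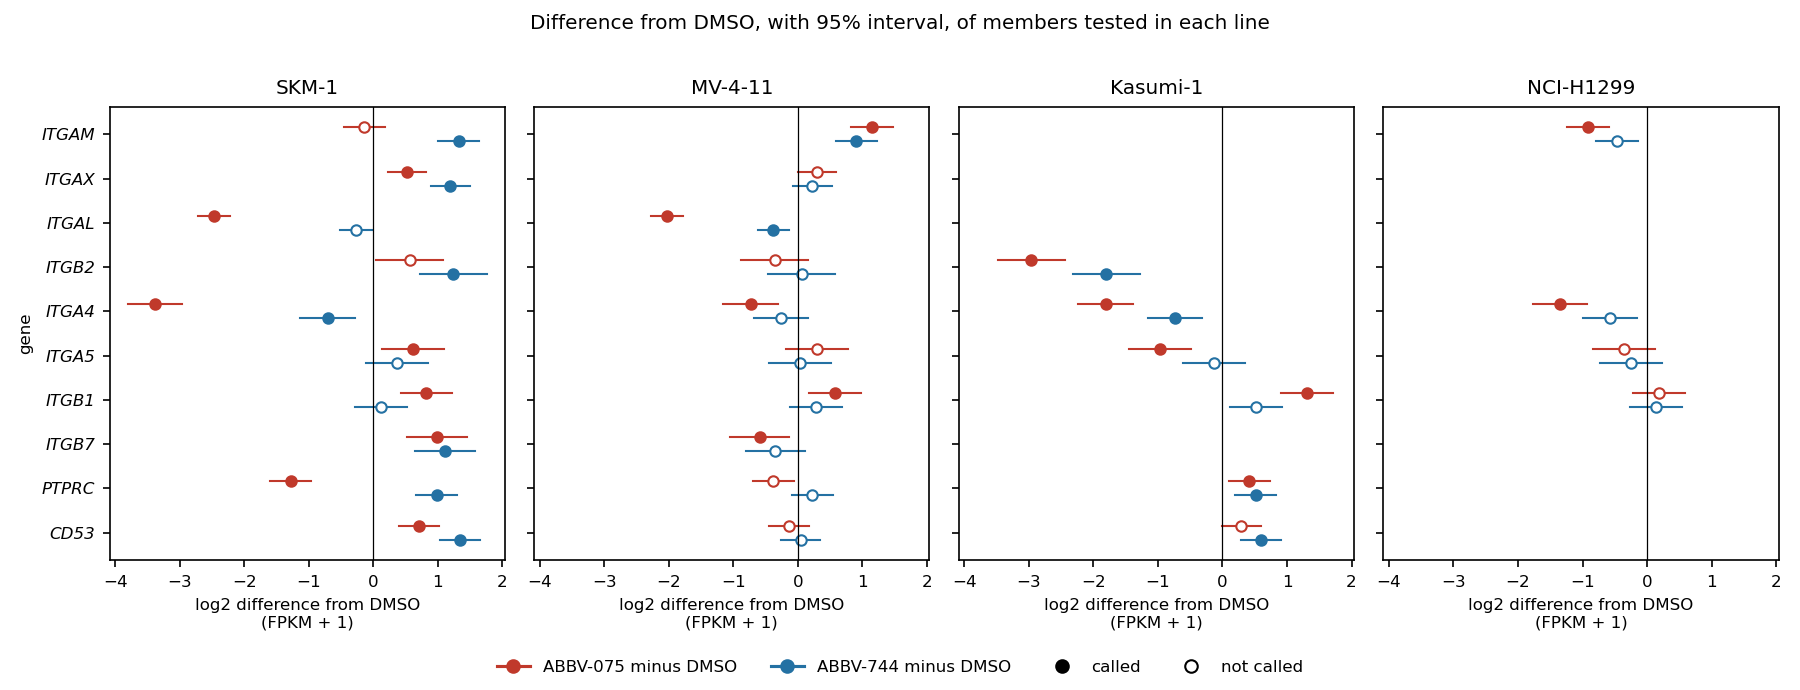
Log2 difference of FPKM + 1 between each compound and DMSO in the 4 lines, for members that passed the filter in that line. Points are fitted differences, bars 95% intervals, and filled points are called by limma. ITGA4 lies at -3.39 in SKM-1 with ABBV-075, and PTPRC lies on opposite sides of 0 there for the compounds, at -1.28 and 0.98.

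Among the beta 2 partners, ITGAL fell strongly with ABBV-075. In SKM-1 its level was 7.15 and 6.35 FPKM with ABBV-075 and 32.4 and 36.8 with ABBV-744, against 39.9 and 43.7 with DMSO. The fall with ABBV-075 was 5.53-fold on the FPKM + 1 scale, a log2 difference of -2.47 ± 0.12 (SE; limma adjusted p = 8.62e-11), and the difference of -0.27 with ABBV-744 was not called (0.1004; 95% interval -0.51 to -0.02). In MV-4-11 the ITGAL level was 87.3 and 88.7 FPKM with ABBV-075 and 249 and 311 with ABBV-744, against 355 and 371 with DMSO. That was a log2 difference of -2.03 ± 0.12 with ABBV-075 (limma adjusted p = 1.32e-09) and -0.38 ± 0.12 with ABBV-744 (0.0450). The groups did not overlap in either line with ABBV-075. Each library was also left out in turn, giving 24 fits. Only fits without a library of the groups compared, 2 per group, can move a log2 difference. The other fits change only the pooled spread and the adjustment, so counts out of 24 here and below are mostly of such fits. Over the 24 fits the ABBV-075 difference of ITGAL ran from -2.54 to -2.39 in SKM-1 and from -2.06 to -1.998 in MV-4-11. The ABBV-744 difference of ITGAL in MV-4-11 was less stable. It was -0.41 and -0.35 without DMSO replicate 1 or 2 and -0.22 without ABBV-744 replicate 1, and its call was lost in each of these fits. It was also lost at a pseudocount of 0.1 FPKM (0.255), without the filter (0.0552), after quantile normalization (0.330) and in the fit of MV-4-11 alone (0.0622). In Kasumi-1 and NCI-H1299 ITGAL stayed below 1 FPKM in every library. As bulk RNA was measured, fewer cells expressing a gene and less RNA per cell cannot be told apart.

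ITGAM, the alpha subunit of Mac-1, rose in SKM-1 with ABBV-744. In SKM-1 its level was 33.3 and 39.1 FPKM with ABBV-744 and 13.8 and 11.3 with ABBV-075, against 17.1 and 11.2 with DMSO. Both ABBV-744 libraries lay above all others, a log2 difference of 1.32 ± 0.15 (limma adjusted p = 1.56e-05), whereas the ABBV-075 libraries fell between the DMSO libraries. The ABBV-075 difference there was -0.14 (limma adjusted p = 0.454), and it was 0.15 (0.334) without DMSO replicate 1 and -0.42 (0.0132) without replicate 2. In MV-4-11 the ITGAM level was 2.80 and 3.48 FPKM with ABBV-075 and 2.26 and 2.73 with ABBV-744, against 0.851 and 0.865 with DMSO. It rose by 1.15 ± 0.15 (limma adjusted p = 1.76e-05) and 0.91 ± 0.15 (0.000918). In NCI-H1299 it was 0.223 and 0.170 FPKM with ABBV-075 and 0.718 and 0.569 with ABBV-744, against 1.20 and 1.33 with DMSO. The log2 difference was -0.92 ± 0.15 with ABBV-075 (limma adjusted p = 0.000146) and -0.46 with ABBV-744 (0.109). ITGAM passed the filter in MV-4-11 only through the treated libraries and in NCI-H1299 only through DMSO, so the direction of the difference in each of these lines was favoured by the filter. In Kasumi-1 it stayed between 0.0873 and 0.208 FPKM and was not tested. On this scale the changes of such low genes are understated.

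ITGAX (CD11c) moved with ITGAM only in part. In SKM-1 its level was 12.9 and 10.2 FPKM with ABBV-075 and 17.3 and 20.7 with ABBV-744, against 8.76 and 6.79 with DMSO. It rose by 0.52 ± 0.14 with ABBV-075 (limma adjusted p = 0.00461) and by 1.19 ± 0.14 with ABBV-744 (1.87e-05). The ABBV-075 call was lost without DMSO replicate 2 (0.36; 0.0605), without ABBV-075 replicate 1 (0.37; 0.0717) and at a pseudocount of 0.1 FPKM (0.57; 0.0567), all limma adjusted p-values. In MV-4-11 it lay between 2.99 and 4.30 FPKM in all 6 libraries, with differences of 0.30 and 0.22 that were not called. In Kasumi-1 it was 0.137 and 0.130 FPKM with ABBV-075 and 0.191 and 0.241 with ABBV-744, against 0.520 and 0.805 with DMSO, and in NCI-H1299 it stayed below 0.2 FPKM. It was not tested in either line, since no library reached 1 FPKM. ITGAM and ITGAX are neighbours on chromosome 16 in RefSeq.

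ITGB2, the beta subunit common to these receptors, moved in opposite directions with ABBV-744 in SKM-1 and Kasumi-1. In Kasumi-1 its level was 1.48 and 1.04 FPKM with ABBV-075 and 4.10 and 3.95 with ABBV-744, against 18.8 and 14.5 with DMSO. It fell by 2.96 ± 0.24 on the log2 scale (7.80-fold; limma adjusted p = 6.69e-08) and by 1.80 ± 0.24 (3.49-fold; 7.94e-05). The 3 groups did not overlap, and both calls held in all 24 fits with a library left out. In SKM-1 its level was 161 and 125 FPKM with ABBV-075 and 207 and 251 with ABBV-744, against 139 and 66.1 with DMSO. It rose by 1.24 ± 0.24 with ABBV-744 (limma adjusted p = 0.00156), and the difference of 0.56 with ABBV-075 was not called (0.0561). The ABBV-744 rise ran from 0.71 to 1.77 when a library was left out and was called in all 24 fits, and the limma adjusted p in SKM-1 alone was 0.140. The ABBV-075 difference was 0.03 (limma adjusted p = 0.884) without DMSO replicate 2 and 1.09 (0.000113) without DMSO replicate 1, and it was called at 0.74 (0.0476) without ABBV-075 replicate 2 and at 0.65 (0.0268) after quantile normalization. In MV-4-11 ITGB2 lay between 59.6 and 88.5 FPKM in all 6 libraries, with differences of -0.36 and 0.06 that were not called, and in NCI-H1299 it stayed below 0.3 FPKM and was not tested. The summed FPKM of the 8 haematopoietic markers was also lower with both compounds in Kasumi-1 and higher with ABBV-744 in SKM-1, while with ABBV-075 in SKM-1 its range lay within that of DMSO. It was 360 to 385 in Kasumi-1 with DMSO, 77.2 to 124 with ABBV-075 and 238 to 288 with ABBV-744, and in SKM-1 it was 1272 to 1998, 1310 to 1521 and 2324 to 2622. In MV-4-11 it was 1246 to 1455 with DMSO, 876 to 893 with ABBV-075 and 1133 to 1280 with ABBV-744. LCP1 and CORO1A weighed most in this sum, with means over all libraries of the line of 671 and 667 FPKM in SKM-1 and 377 and 401 in MV-4-11. The next highest were LSP1 at 255 in SKM-1 and CD33 at 107 in MV-4-11. In Kasumi-1 CORO1A weighed most, at 129 FPKM, followed by SPI1 at 25.7. The sum therefore does not show each of the 8 markers. The part of the 8 markers in the ITGB2 differences was not tested.

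ITGA4, the alpha subunit of VLA-4, fell with ABBV-075 in all 4 lines. In SKM-1 its level was 2.52 and 3.51 FPKM with ABBV-075 and 25.3 and 23.7 with ABBV-744, against 38.7 and 42.7 with DMSO. The fall with ABBV-075 was 10.5-fold on the FPKM + 1 scale, -3.39 ± 0.20 in log2 (limma adjusted p = 9.66e-10), and with ABBV-744 it was -0.71 ± 0.20 (0.0152). In Kasumi-1 its level was 21.1 and 26.1 FPKM with ABBV-075 and 53.3 and 48.1 with ABBV-744, against 78.3 and 92.2 with DMSO. The differences were -1.81 ± 0.20 (limma adjusted p = 1.46e-06) and -0.74 ± 0.20 (0.0135). In both lines the ABBV-744 libraries lay between the ABBV-075 and the DMSO libraries, with no overlap.

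The group means of ITGA4 kept this order in the other lines. In NCI-H1299 its level was 3.36 and 6.07 FPKM with ABBV-075 and 9.25 and 7.89 with ABBV-744, against 12.9 and 13.4 with DMSO. The differences were -1.35 ± 0.20 (limma adjusted p = 4.50e-05) and -0.57 (0.129). In MV-4-11 it was 36.5 and 36.4 FPKM with ABBV-075 and 55.3 and 46.7 with ABBV-744, against 69.2 and 54.3 with DMSO, and here the ABBV-744 and DMSO libraries overlapped. The differences were -0.73 ± 0.20 (limma adjusted p = 0.00725) and -0.27 (0.458). The ABBV-075 calls in SKM-1, Kasumi-1 and NCI-H1299 held in all 24 fits with a library left out, and that in MV-4-11 in 23, failing without DMSO replicate 1 (-0.56; limma adjusted p = 0.0877). With ABBV-744, the SKM-1 call failed without DMSO replicate 2 (-0.64; 0.0752) and without either ABBV-744 library (-0.75; 0.0570 and -0.66; 0.0877), and the Kasumi-1 call without DMSO replicate 2 (-0.62; 0.112) and without ABBV-744 replicate 2 (-0.66; 0.0943), all limma adjusted p-values. ITGA4 and its neighbour CERKL overlap in RefSeq and whether counting used the strand is not given, so reads from the overlap may have been assigned to either gene. The mean CERKL level was at most 9.73 FPKM in any group. ITGB7 and CD53 also overlap coding genes, ZNF740 and LRIF1, and the same limit applies to their values.

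ITGB1, the beta subunit that ITGA4 and ITGA5 share, was never called lower. In Kasumi-1 its level was 352 and 436 FPKM with ABBV-075 and 238 and 216 with ABBV-744, against 150 and 166 with DMSO. It rose by 1.31 ± 0.19 with ABBV-075 (2.48-fold; limma adjusted p = 2.43e-05), and the difference of 0.52 with ABBV-744 was not called (0.0571), although it was after quantile normalization (0.59; 0.0485). In SKM-1 it was 78.1 and 93.6 FPKM with ABBV-075 and 54.8 and 49.7 with ABBV-744, against 36.2 and 63.4 with DMSO. It rose by 0.82 ± 0.19 with ABBV-075 (limma adjusted p = 0.00138), a value between 0.43 and 1.22 when a library was left out and called each time. The difference of 0.12 with ABBV-744 was not called (limma adjusted p = 0.670), and it was -0.28 (0.116) without DMSO replicate 1 and 0.51 (0.0165) without replicate 2. In MV-4-11 it was 65.2 and 59.6 FPKM with ABBV-075 and 52.6 and 49.2 with ABBV-744, against 43.9 and 39.5 with DMSO, with no overlap. It rose by 0.57 ± 0.19 with ABBV-075 (limma adjusted p = 0.0222), a call lost without DMSO replicate 2 (0.50; 0.126) and without ABBV-075 replicate 1 (0.51; 0.122) or 2 (0.64; 0.0555), and the ABBV-744 difference was 0.28 (0.398). In NCI-H1299 it was 258 and 263 FPKM with ABBV-075 and 254 and 250 with ABBV-744, against 229 in both DMSO libraries. Neither difference was called (0.19 and 0.14). Fitted in NCI-H1299 alone, the ABBV-075 rise was called (limma adjusted p = 0.0104) and the ABBV-744 difference was not (0.0816).

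ITGA5 and ITGB7 were called in some lines and not in others. In Kasumi-1 the ITGA5 level was 45.8 and 29.8 FPKM with ABBV-075 and 65.8 and 68.0 with ABBV-744, against 73.9 and 73.1 with DMSO. It fell by 0.97 ± 0.22 with ABBV-075 (limma adjusted p = 0.00166) and was not called with ABBV-744 (-0.13; 0.719). In SKM-1 it was 46.1 and 38.8 FPKM with ABBV-075 and 32.9 and 38.5 with ABBV-744, against 37.6 and 19.9 with DMSO. The rise of 0.61 ± 0.22 with ABBV-075 (limma adjusted p = 0.0276) was lost without DMSO replicate 2 (0.17; 0.468) and without ABBV-075 replicate 1 (0.49; 0.157). The ABBV-744 difference of 0.37 was not called (limma adjusted p = 0.243) and was 0.81 (0.00310) without DMSO replicate 1 and -0.08 (0.826) without replicate 2. ITGA5 was not called with either compound in MV-4-11 (0.29 and 0.033) or NCI-H1299 (-0.36 and -0.25). In NCI-H1299 its level was 13.4 and 12.5 FPKM with ABBV-075 and 13.5 and 14.6 with ABBV-744, against 16.7 and 17.1 with DMSO. Fitted in NCI-H1299 alone, both falls were called (limma adjusted p = 0.00188 and 0.0367). The ITGB7 level in SKM-1 was 15.7 and 11.8 FPKM with ABBV-075 and 13.8 and 16.2 with ABBV-744, against 9.09 and 4.38 with DMSO. It rose by 0.99 ± 0.22 (limma adjusted p = 0.000973) and 1.11 ± 0.22 (0.00147), and the values ran from 0.53 to 1.44 and from 0.66 to 1.56 when a library was left out.

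ITGB7 went the other way in MV-4-11. Its level there was 9.85 and 10.0 FPKM with ABBV-075 and 10.6 and 13.3 with ABBV-744, against 13.7 and 17.4 with DMSO. It fell by 0.59 ± 0.22 with ABBV-075 (limma adjusted p = 0.0378) and was not called with ABBV-744 (-0.35; 0.358). The ABBV-075 call was lost without DMSO replicate 2 (-0.43; limma adjusted p = 0.243), without ABBV-075 replicate 1 (-0.58; 0.126) or 2 (-0.60; 0.114), without the filter (-0.59; 0.0682) and at a pseudocount of 0.1 FPKM (-0.63; 0.153). In Kasumi-1 and NCI-H1299 ITGB7 stayed below 0.3 FPKM in every library.

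PTPRC, which encodes CD45, moved in opposite directions with the compounds in SKM-1. Its level was 42.4 and 43.2 FPKM with ABBV-075 and 218 and 201 with ABBV-744, against 99.5 and 111 with DMSO. Every ABBV-075 library lay below and every ABBV-744 library above both DMSO libraries. It fell by 1.28 ± 0.15 on the log2 scale with ABBV-075 (2.43-fold; limma adjusted p = 2.28e-06) and rose by 0.98 ± 0.15 with ABBV-744 (1.98-fold; 0.000199). Both calls held in all 24 fits with a library left out, and fitted in SKM-1 alone the limma adjusted p-values were 0.00355 and 0.0612. In Kasumi-1 the level was 25.6 and 31.1 FPKM with ABBV-075 and 29.8 and 30.8 with ABBV-744, against 18.1 and 24.1 with DMSO. The rises of 0.42 ± 0.15 (limma adjusted p = 0.0254) and 0.52 ± 0.15 (0.0199) were both lost without DMSO replicate 1 (0.22; 0.296 and 0.32; 0.237) and at a pseudocount of 0.1 FPKM (0.43; 0.120 and 0.54; 0.111). The first was also lost without ABBV-075 replicate 2 (0.28; limma adjusted p = 0.198) and the second without ABBV-744 replicate 1 (0.54; 0.0728) or 2 (0.49; 0.0987). In MV-4-11 the level was 41.7 and 31.4 FPKM with ABBV-075 and 60.2 and 51.0 with ABBV-744, against 48.4 and 46.4 with DMSO. Neither difference was called there (-0.38; limma adjusted p = 0.0516 and 0.22; 0.407), and the first was called in 7 of the 24 fits with a library left out, the largest being -0.58 (0.0159) without ABBV-075 replicate 1.

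CD53, the tetraspanin, rose with both compounds in SKM-1. Its level was 40.3 and 37.8 FPKM with ABBV-075 and 65.6 and 57.3 with ABBV-744, against 28.5 and 19.5 with DMSO. It rose by 0.70 ± 0.14 (limma adjusted p = 0.000580) and 1.34 ± 0.14 (8.10e-06), and both calls held in all 24 fits with a library left out. Fitted in SKM-1 alone, neither rise was called (limma adjusted p = 0.0561 and 0.0502). In Kasumi-1 the level was 104 and 97.4 FPKM with ABBV-075 and 122 and 127 with ABBV-744, against 74.2 and 90.3 with DMSO. It rose by 0.60 ± 0.14 with ABBV-744 (limma adjusted p = 0.00708), and the difference of 0.29 with ABBV-075 was not called (0.0957). The ABBV-744 call was lost without DMSO replicate 1 (0.46; limma adjusted p = 0.0956), without ABBV-744 replicate 2 (0.57; 0.0515) and at a pseudocount of 0.1 FPKM (0.60; 0.0708). In MV-4-11 CD53 lay between 100 and 119 FPKM in all 6 libraries and was not called (-0.13 and 0.041). In NCI-H1299 PTPRC and CD53 stayed below 0.2 FPKM in every library. The summed FPKM of the haematopoietic markers, given with ITGB2, was also highest in SKM-1 with ABBV-744. In Kasumi-1, where PTPRC was called higher with both compounds and CD53 with ABBV-744, the marker sum was lower with both compounds. The part of the markers in the PTPRC and CD53 rises was not tested.

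Because FPKM is scaled by gene length, subunits can be set against each other within a library as a description, with no test. In SKM-1, ITGAL made up 60.7% and 70.9% of the summed FPKM of ITGAL, ITGAM and ITGAX with DMSO, 21.1% and 22.7% with ABBV-075, and 39.1% and 38.1% with ABBV-744. In MV-4-11 that share stayed high, at 98.9% in both libraries with DMSO, 92.9% and 92.1% with ABBV-075, and 97.9% and 97.8% with ABBV-744. SKM-1 thus went from mostly ITGAL to mostly ITGAM and ITGAX RNA with either compound, and MV-4-11 did not. The ratio of ITGB2 to the 3 alpha subunits rested on different members: it was 1.59 ± 0.733 (SD, n = 2) in SKM-1 with DMSO, 4.63 ± 0.204 with ABBV-075 and 2.55 ± 0.0715 with ABBV-744. In MV-4-11 it was 0.218 ± 0.0219, 0.649 ± 0.0430 and 0.291 ± 0.0189. In Kasumi-1, where the 3 alpha subunits summed to little over 1 FPKM, it was 12.3 ± 3.47 with DMSO and 3.48 ± 0.467 with ABBV-744, or 7.50 and 2.32 with 1 FPKM added to both terms.

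The ITGA4 and ITGA5 subunits, alternative partners of ITGB1, shifted in the same way. ITGA4 made up 50.7% and 68.2% of the ITGA4 and ITGA5 sum in SKM-1 with DMSO, 5.17% and 8.29% with ABBV-075, and 43.5% and 38.1% with ABBV-744. Its mean share with DMSO, ABBV-075 and ABBV-744 was 56.9%, 39.0% and 51.7% in MV-4-11, 53.6%, 39.1% and 43.1% in Kasumi-1, and 43.8%, 26.3% and 37.9% in NCI-H1299. The ratio of ITGB1 to ITGA4 plus ITGA5 was 0.995 ± 0.0139 (SD, n = 2) in Kasumi-1 with DMSO, 6.53 ± 1.80 with ABBV-075 and 1.93 ± 0.0963 with ABBV-744. In NCI-H1299 it was 7.60 ± 0.162, 14.7 ± 0.875 and 11.2 ± 0.0284, in MV-4-11 0.385 ± 0.0102, 0.667 ± 0.0315 and 0.516 ± 0.0148, and in SKM-1 0.745 ± 0.381, 1.91 ± 0.427 and 0.871 ± 0.1003. In every line the mean ratio was highest with ABBV-075 and lowest with DMSO, and only in SKM-1 did the DMSO and ABBV-744 libraries overlap.

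**Figure D3:**
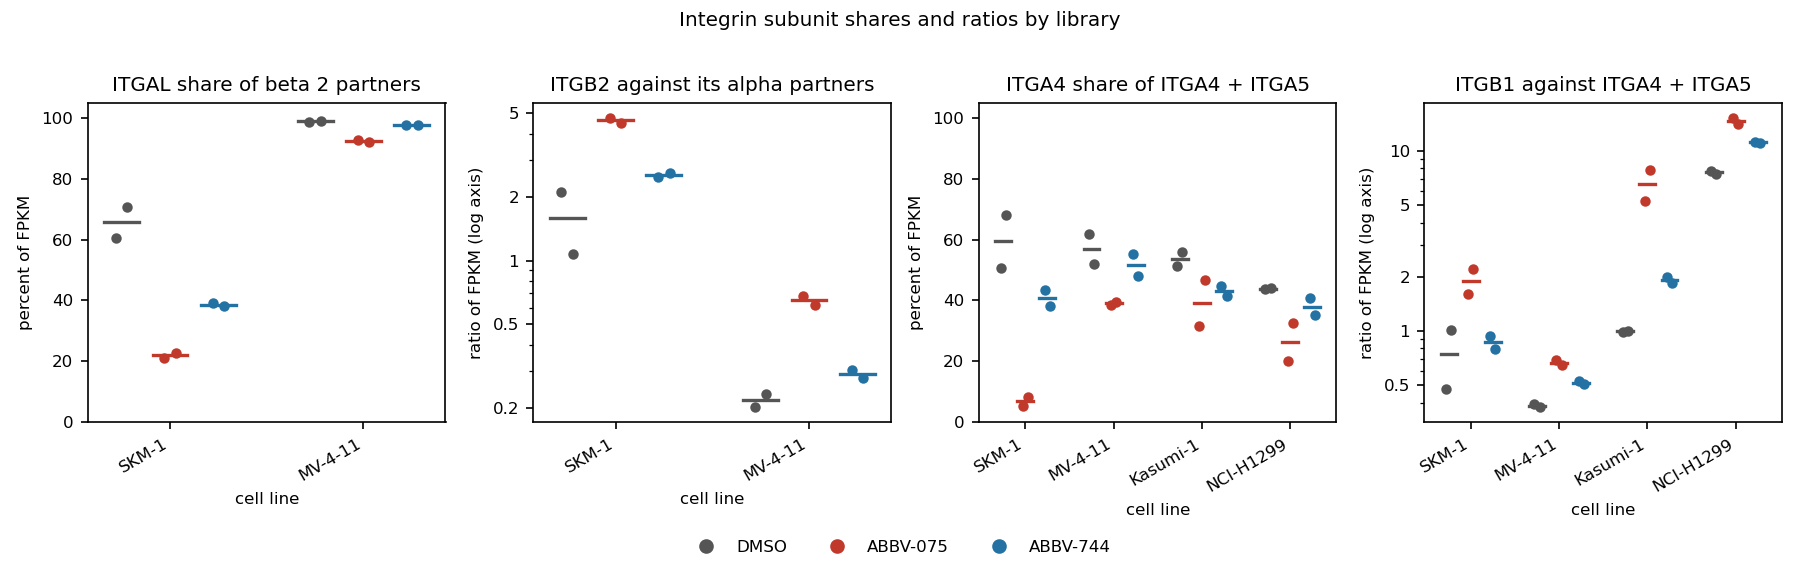
Shares (percent of FPKM) and ratios of FPKM (log axis) of integrin subunits in each library, by line and treatment, with the mean of 2 libraries as a short line. The share of ITGAL and the ITGB2 ratio are drawn for SKM-1 and MV-4-11, where the sum was well above 1 FPKM. In SKM-1 with ABBV-075, ITGA4 falls to 5.17% and 8.29% of the ITGA4 and ITGA5 sum.

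Whether lines responded differently was tested as the difference between their log2 changes, among members that passed the filter in each line compared. For ABBV-075, 5 of 10 members differed between SKM-1 and MV-4-11 (29.2% of all genes tested), 4 of 6 between SKM-1 and Kasumi-1 (30.9%) and 4 of 6 between MV-4-11 and Kasumi-1 (27.3%). The 5 include ITGAM, which passed the filter in MV-4-11 only through treated libraries, so a rise in that line was favoured. Against NCI-H1299, the mean of the 3 leukaemia lines, taken as fixed, differed for 1 of 3 (18.5%), ITGB1, whose change was 0.71 ± 0.22 higher (limma adjusted p = 0.0307). The ITGB1 call was lost after quantile normalization (0.62; 0.0801) and held in 16 of 24 fits with a library left out. The largest ABBV-075 difference was ITGB2 in SKM-1 minus Kasumi-1, at 3.53 ± 0.34 (limma adjusted p = 4.74e-06), and ITGA4 fell further in SKM-1 than in MV-4-11 by 2.65 ± 0.28 (6.20e-06). PTPRC fell further in SKM-1 than in MV-4-11, by 0.90 ± 0.21 (limma adjusted p = 0.00481). Tested and not called were ITGAX, ITGAL, ITGB2, ITGA5 and ITGB1 between SKM-1 and MV-4-11, ITGB1 and CD53 between either of these lines and Kasumi-1, and ITGA4 and ITGA5 against NCI-H1299.

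For ABBV-744, 4 of 10 members differed between SKM-1 and MV-4-11 (5.43% of all genes tested), ITGAX, ITGB7, PTPRC and CD53, each with the higher change in SKM-1. The CD53 difference was 1.30 ± 0.20 (limma adjusted p = 0.00128), whereas that of PTPRC, 0.76 ± 0.21 (0.0481), held in 8 of 24 fits with a library left out. At a pseudocount of 0.1 FPKM only CD53 was called. ITGAM, ITGAL, ITGB2, ITGA4, ITGA5 and ITGB1 were tested and not called. Between SKM-1 and Kasumi-1 it was 1 of 6 (3.98%) and between MV-4-11 and Kasumi-1 1 of 6 (3.9%), in both cases ITGB2, and ITGA4, ITGA5, ITGB1, PTPRC and CD53 were not called. Its change was 3.04 ± 0.34 higher in SKM-1 (limma adjusted p = 0.000118) and 1.86 ± 0.34 higher in MV-4-11 (0.00755) than in Kasumi-1. Between the leukaemia mean and NCI-H1299, limma called 0 of 3, ITGA4, ITGA5 and ITGB1 (0.57% of all genes tested), and 0 had an unadjusted p under 0.05.

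Genes of the same pathways were counted from lists drawn up with earlier results of these data known. With ABBV-075, 32% of all genes tested rose and 29.2% fell in SKM-1, 20.3% and 22.1% in MV-4-11, 24.7% and 32.6% in Kasumi-1, and 20.6% and 26.5% in NCI-H1299. The other integrin subunits gave few tested genes: of 18 listed, 5, 7, 6 and 10 were tested in SKM-1, MV-4-11, Kasumi-1 and NCI-H1299. With ABBV-075, 3, 2, 3 and 4 of them rose and 1, 1, 1 and 4 fell. ITGAV, the alpha V subunit that also pairs with ITGB1, rose with ABBV-075 in all 4 lines, from 8.16 to 16.4 FPKM in SKM-1 (0.94 ± 0.17; limma adjusted p = 0.000154) and from 21.1 to 45.5 FPKM in Kasumi-1 (1.05 ± 0.17; 6.04e-05). ITGA3, a laminin receptor subunit, rose in SKM-1 from 1.97 to 11.7 FPKM (2.08 ± 0.21; limma adjusted p = 4.89e-07). ITGA6, another laminin receptor subunit, fell in SKM-1 (-1.29 ± 0.20; limma adjusted p = 3.87e-05) and NCI-H1299 (-1.03 ± 0.20; 0.000534).

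Of 27 genes for integrin activation and adaptors, 23 were tested in each leukaemia line and 20 in NCI-H1299. With ABBV-075 7 rose and 7 fell in SKM-1 (32% and 29.2% of all genes), 7 and 6 in MV-4-11 (20.3% and 22.1%), 3 and 11 in Kasumi-1 (24.7% and 32.6%), and 5 and 3 in NCI-H1299 (20.6% and 26.5%). In SKM-1 these shares were near those of all genes. The median log2 difference in Kasumi-1 was -0.54, beside -0.086 over all genes tested. RASGRP2, the exchange factor that activates RAP1 upstream of integrins, fell with ABBV-075 from 86.5 to 14.7 FPKM in SKM-1 (-2.45 ± 0.21; limma adjusted p = 6.92e-08) and from 69.2 to 28.3 FPKM in MV-4-11 (-1.25 ± 0.21; 0.000165). FYB, an adaptor of the same route, fell from 12.4 to 0.375 FPKM in SKM-1 (-3.23 ± 0.19; limma adjusted p = 8.09e-10). Others of the list rose with ABBV-075. CYTH1 went from 13.5 to 56.4 FPKM in SKM-1 (2.01 ± 0.15; limma adjusted p = 1.53e-08). TLN2 went from 2.25 to 4.27 FPKM in NCI-H1299 (0.70 ± 0.15; limma adjusted p = 0.00161). FERMT3 (kindlin-3), which binds integrin beta tails in blood cells, fell in Kasumi-1 from 54.9 to 7.80 FPKM with ABBV-075 (-2.71 ± 0.25; limma adjusted p = 2.64e-07) and was not called with ABBV-744 (-0.45; 0.222).

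Among 18 integrin ligand genes, 5 of 9 tested rose and 3 fell with ABBV-075 in SKM-1 (32% and 29.2% of all genes). It was 1 and 2 of 7 in MV-4-11 (20.3% and 22.1%), 1 and 5 of 8 in Kasumi-1 (24.7% and 32.6%), and 1 and 4 of 10 in NCI-H1299 (20.6% and 26.5%). ICAM1, a ligand of LFA-1 and Mac-1, rose in SKM-1 from 2.12 to 10.1 FPKM (1.88 ± 0.19; limma adjusted p = 6.22e-07) and fell in Kasumi-1 from 10.2 to 5.44 FPKM (-0.82 ± 0.19; 0.00195). SPP1 (osteopontin) rose in SKM-1 (2.11 ± 0.25; limma adjusted p = 2.87e-06) and fell in NCI-H1299 (-2.44 ± 0.25; 1.22e-06). Of 15 genes for CD45 substrates and integrin-proximal kinases, JAK1 rose with ABBV-075 in all 4 lines, by 1.69, 0.97, 1.66 and 1.499 in SKM-1, MV-4-11, Kasumi-1 and NCI-H1299.

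Of 16 other pan-leucocyte surface genes, 1 of 14 tested rose with ABBV-075 and 8 fell in SKM-1 (32% and 29.2% of all genes), 0 and 5 of 14 in MV-4-11 (20.3% and 22.1%), 2 and 11 of 13 in Kasumi-1 (24.7% and 32.6%), and 0 and 1 of 2 in NCI-H1299 (20.6% and 26.5%). With ABBV-744 5 rose and 3 fell in SKM-1 (14.9% and 12.5%), 0 and 2 in MV-4-11 (4.61% and 6.75%), 1 and 6 in Kasumi-1 (8.69% and 15%), and 0 and 0 in NCI-H1299 (1.4% and 3.95%). SELPLG, the P-selectin ligand, fell in SKM-1 from 20.4 to 1.34 FPKM with ABBV-075 (-3.20 ± 0.13; limma adjusted p = 1.70e-11). EVI2B, a leucocyte membrane protein, fell in SKM-1 with ABBV-075 (-1.99 ± 0.16; limma adjusted p = 3.96e-08) and rose with ABBV-744 (0.58 ± 0.16; 0.0137), and TYROBP, an adaptor for activating receptors, rose with ABBV-744 from 22.3 to 96.8 FPKM (2.09 ± 0.19; 1.44e-06). Of 15 other tetraspanins, 15 were tested in SKM-1 and in MV-4-11. With ABBV-075, 7 rose and 3 fell in SKM-1 (32% and 29.2% of all genes) and 7 and 2 in MV-4-11 (20.3% and 22.1%). In Kasumi-1 it was 2 and 5 of 13 (24.7% and 32.6%) and in NCI-H1299 3 and 3 of 14 (20.6% and 26.5%). TSPAN31 rose with ABBV-075 in SKM-1 (1.79 ± 0.12; limma adjusted p = 3.33e-09) and CD82 in MV-4-11 (2.10 ± 0.23; 2.61e-06). TSPAN32, a blood-cell tetraspanin, fell with ABBV-075 in SKM-1 (-2.12 ± 0.22; limma adjusted p = 5.40e-07) and MV-4-11 (-2.54 ± 0.22; 1.56e-07), where CD53 itself rose and was not called, respectively.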

How the data were processed

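RNA was poly-A selected and sequenced, per the labels' protocols. The authors deposited 1 table of FPKM values with 30373 rows, of which 21582 matched a symbol. DESeq2 is named in the submitters' processing notes. Its role, the aligner, the quantifier and the genome build were not given in the sources used here. FPKM keeps no depth, so counting error was not computed. Groups came from the labels.

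Values were analysed as log2(FPKM + 1) in R 4.3.3 with limma 3.58.1 (12 group means over 24 libraries, 12 residual degrees of freedom, eBayes with trend and robust, statmod 1.5.0). Genes needed 1 FPKM or more in 2 or more libraries of the line, of either line for comparisons of lines under DMSO, and of every line for differences in response. Tests were two-sided, adjusted by Benjamini and Hochberg over all genes tested in each of 22 comparisons, and called at an adjusted p under 0.05. The procedure was tested on simulated data. Errors after ± are SE of a log2 difference or SD where stated. Members, lists and tests were chosen with earlier results of these data known. All members are named, those below the filter in a line by their levels alone, and from each list up to 3 called genes per line with the largest change could be named. Alternatives were a pseudocount of 0.1, no filter, quantile normalization, plain eBayes, each line fitted alone, ratios with 1 FPKM added, and each library left out. A library left out of a group not compared leaves the log2 difference unchanged. Likeness was Pearson's r of group means. No protein sequence was analysed here. Python 3.11.15 and matplotlib 3.10.9 drew the plots.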

Additional observations from a re-analysis of the deposited data

Results flagged for a closer look

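The flagged values are differences between lines in a gene's log2 change with a compound that passed the limma test of that difference. No explanation was tested for them.

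With ABBV-075, the change in SKM-1 minus that in MV-4-11 was -1.29 for ITGAM, -2.65 for ITGA4, 1.58 for ITGB7, -0.90 for PTPRC and 0.84 for CD53. ITGAM lay below 1 FPKM in MV-4-11 with DMSO and passed the filter there only through the treated libraries, so a rise in MV-4-11 was favoured by the filter. The CD53 difference was not called at a pseudocount of 0.1 FPKM (0.86; limma adjusted p = 0.0593). The change in SKM-1 minus that in Kasumi-1 was 3.53 for ITGB2, -1.57 for ITGA4, 1.58 for ITGA5 and -1.70 for PTPRC. The change in MV-4-11 minus that in Kasumi-1 was 2.60 for ITGB2, 1.08 for ITGA4, 1.27 for ITGA5 and -0.80 for PTPRC. That PTPRC difference was not called without MV-4-11 ABBV-075 replicate 2 (-0.60; limma adjusted p = 0.0688), Kasumi-1 DMSO replicate 1 (-0.60; 0.0684) or Kasumi-1 ABBV-075 replicate 2 (-0.66; 0.0534), nor at a pseudocount of 0.1 FPKM (-0.82; 0.0721). The change in the mean of the 3 leukaemia lines minus that in NCI-H1299 was 0.71 for ITGB1.

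With ABBV-744, the change in SKM-1 minus that in MV-4-11 was 0.97 for ITGAX, 1.46 for ITGB7, 0.76 for PTPRC and 1.30 for CD53. The ITGB7 difference was not called without MV-4-11 DMSO replicate 2 (1.30; limma adjusted p = 0.0623) or MV-4-11 ABBV-744 replicate 1 (1.31; 0.0501). For ITGB2 it was 3.04 in SKM-1 minus Kasumi-1 and 1.86 in MV-4-11 minus Kasumi-1.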

How the results depend on the processing

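No paired analysis was possible because replicate numbers were given in accession order and name libraries without pairing them.

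The share of all genes called was computed only with the main settings, so the counts below have no such share beside them. Fitted in each line alone, the members called were 4 in SKM-1 with ABBV-075 and 0 with ABBV-744 (8 and 7 in the joint fit), 6 and 1 in MV-4-11 (5 and 2), 4 and 1 in Kasumi-1 (5 and 4) and 4 and 2 in NCI-H1299 (2 and 0). A pseudocount of 0.1 FPKM gave 1 in MV-4-11 and 2 in Kasumi-1 with ABBV-744, and 1 for the ABBV-744 response of SKM-1 against MV-4-11 (4). Without the filter 1 was called in MV-4-11 with ABBV-744, where quantile normalization also gave 1. The response counts without the filter were 7 for ABBV-075 in SKM-1 against Kasumi-1 (4), 7 in MV-4-11 against Kasumi-1 (4) and 3 in the leukaemia mean against NCI-H1299 (1), and for ABBV-744 4 in SKM-1 against Kasumi-1 (1) and 2 in the leukaemia mean against NCI-H1299 (0). Quantile normalization left 0 for the ABBV-075 response of the leukaemia mean against NCI-H1299, and eBayes without trend and robust gave 2 for the ABBV-744 response of SKM-1 against Kasumi-1. Leaving out each library gave 6 to 9 and 6 to 8 in SKM-1 with ABBV-075 and ABBV-744, 3 to 6 and 1 to 2 in MV-4-11, 4 to 6 and 1 to 5 in Kasumi-1, and 1 to 2 and 0 to 1 in NCI-H1299. For the ABBV-075 responses it gave 5 to 8, 4 to 6, 3 to 6 and 0 to 2, and for ABBV-744 2 to 8, 1 to 4, 1 to 2 and 0 to 0, in the order of the report.

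With 1 FPKM added to both terms, the ITGB2 ratio was 7.50 in Kasumi-1 with DMSO and 2.32 with ABBV-744, and the ITGB1 ratio in NCI-H1299 was 7.39 with DMSO and 10.7 with ABBV-744. Sign changes were found only among differences that were not called. At a pseudocount of 0.1 FPKM the ABBV-744 response of ITGAM in SKM-1 minus MV-4-11 was -0.053, and after quantile normalization that of ITGAL was -0.095 and that of ITGA4 in SKM-1 minus Kasumi-1 was -0.17. With each library left out, ITGAM in SKM-1 with ABBV-075 ran from -0.42 to 0.15, and ITGB1 and ITGA5 there with ABBV-744 from -0.28 to 0.51 and from -0.077 to 0.81. In MV-4-11 with ABBV-744, CD53 ran from -0.026 to 0.11, ITGA5 from -0.081 to 0.15 and ITGB2 from -0.076 to 0.19. Under DMSO, SKM-1 minus MV-4-11 ran from -0.19 to 0.60 for ITGB1 and from -0.26 to 0.79 for ITGB2. The ABBV-075 response of SKM-1 minus MV-4-11 ran from -0.15 to 0.64 for ITGB1 and from -0.13 to 0.76 for ITGA5. For ABBV-744 it ran from -0.56 to 0.23 for ITGB1, from -0.11 to 0.78 for ITGA5 and from -0.047 to 0.27 for ITGAL. The ABBV-744 response of ITGA4 ran from -0.090 to 0.14 in SKM-1 minus Kasumi-1 and from -0.10 to 0.10 in the leukaemia mean minus NCI-H1299. The causes were not tested.

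With 2 libraries per group and no counts, small differences in genes near 1 FPKM cannot be resolved. The SKM-1 DMSO libraries, which differ most, enter every SKM-1 result.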

Other observations

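The genes whose pattern over the 12 group means was most like a member's are given as a description with Pearson's r of mean log2(FPKM + 1), among 13985 genes with a symbol. Differences between lines and between treatments both enter these values, so a high r may come from the 4 lines alone. How much each contributed was not tested. The pattern of ITGB2 was most like that of LCP1 (r = 0.991), an actin-bundling protein of leucocytes, and that of CD53 most like NCKAP1L (0.995), an actin regulator of blood cells. PTPRC was most like RCSD1 (0.980), ITGAX most like KCNQ1 (0.977), ITGAL most like HNMT (0.997) and ITGB1 most like VEZT (0.990). ITGB7 was most like TNFAIP2 (0.993), ITGA5 most like AGAP2 (0.974) and ITGAM most like SLITRK4 (0.964). ITGA4 was most like CGREF1 (0.957), followed by CERKL (0.954), its neighbour on chromosome 2, with which it overlaps.

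The mean CERKL level was 3.503 FPKM in SKM-1 with DMSO, 0.468 with ABBV-075 and 2.17 with ABBV-744. It was 9.73, 1.89 and 6.15 FPKM in Kasumi-1, 9.72, 4.23 and 5.20 in MV-4-11, and 1.35, 0.636 and 0.925 in NCI-H1299. CERKL was thus lowest with ABBV-075 in each line, as ITGA4 was, and whether reads from the shared stretch contribute was not tested. CERKL was singled out after its values were seen. The antisense gene ITGB2-AS1, which overlaps ITGB2, had a mean of 2.57 FPKM in SKM-1 with DMSO, 2.16 with ABBV-075 and 6.74 with ABBV-744. It was 4.05, 0.721 and 2.21 FPKM in MV-4-11, where ITGB2 was not called with either compound, and 0.514, 0.0703 and 0.338 in Kasumi-1. In NCI-H1299 it was below 0.1 FPKM in every group.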
